A study of Mus musculus with 4 samples.

Results

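The regions described here are H3K4me3 peaks that 2 or more neighbouring genes share. H3K4me3 was mapped by chromatin immunoprecipitation with sequencing (ChIP-seq) in thioglycollate-elicited peritoneal macrophages, cells drawn into the mouse abdominal cavity by an irritant broth and then kept in culture dishes. A wild-type peak was taken as a member where it was shorter than 4000 bp and lay within 1000 bp of an end of at least 2 protein-coding RefSeq genes whose bodies did not overlap. This rule found 1660 members among the 31398 wild-type H3K4me3 peaks, or 5.29%. They lay at 2637 of 21883 genes and formed 1351 neighbouring gene pairs. Of the members, 1570 touched 2 genes, 87 touched 3, 2 touched 4 and 1 touched 5. The 4 libraries came from macrophages of 8-week-old C57BL/6 mice, 1 library each for H3K4me3 in Sun-/- cells, H3K4me3 in wild-type cells, H3K9me3 in Sun-/- cells and H3K9me3 in wild-type cells. The labels name the knockout Sun-/- without saying which gene that is, and they do not say how many mice each library came from. No agent separates the groups, and the broth and the culture were common to all of them. With 1 library per group there is no replicate check, no test between genotypes was possible, and the 95% intervals given here cover counting error only.

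H3K4me3 is the trimethyl mark that nucleosomes carry next to active transcription starts, and H3K9me3 is a mark of silenced chromatin. Mammalian genes often stand head to head, with their starts a short distance apart and transcribed in opposite directions. Such divergent pairs are known as bidirectional promoters, they tend to lie in CpG islands, and many of them serve DNA repair, mitochondrial and other housekeeping genes. The polymerase initiates in a stretch poor in nucleosomes, and the mark lies on the nucleosomes that follow each start. In tandem pairs the end of 1 gene precedes the start of the next, and in convergent pairs the 3′ ends face each other.

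Promoter windows of 7 genes at members are shown, 3 from pairs known in textbooks to share a promoter (Atm, Psmd13, Trp53) and 4 from members at the edges of the comparison between genotypes (Tmem209, Gtf3c1, Rpgrip1l, Irf7). Each is 300 bases from the RefSeq GRCm38.p6 table, from 250 before the transcription start to 50 after it, written 5′ to 3′ on the strand of the named gene. Capitals mark the bases that lie between the bodies of the 2 neighbouring genes, so at the 6 pairs other than Phrf1/Irf7 lower case on either side belongs to 1 gene or the other. The windows lie at chr9:53536622-53536921 on the - strand (Atm, a kinase of the DNA damage response, beside the histone gene regulator Npat) and chr7:140882144-140882443 on the + strand (Psmd13, a proteasome subunit, beside the mitochondrial deacetylase Sirt3). The others lie at chr11:69580109-69580408 on the + strand (Trp53, beside Wrap53), chr6:30509734-30510033 on the - strand (Tmem209, beside Ssmem1), chr7:125707639-125707938 on the - strand (Gtf3c1, a subunit of the general factor TFIIIC, beside D430042O09Rik), chr8:91313173-91313472 on the - strand (Rpgrip1l, a ciliary protein, beside Fto) and chr7:141266375-141266674 on the - strand (Irf7, an interferon regulatory factor, beside Phrf1).
Atm: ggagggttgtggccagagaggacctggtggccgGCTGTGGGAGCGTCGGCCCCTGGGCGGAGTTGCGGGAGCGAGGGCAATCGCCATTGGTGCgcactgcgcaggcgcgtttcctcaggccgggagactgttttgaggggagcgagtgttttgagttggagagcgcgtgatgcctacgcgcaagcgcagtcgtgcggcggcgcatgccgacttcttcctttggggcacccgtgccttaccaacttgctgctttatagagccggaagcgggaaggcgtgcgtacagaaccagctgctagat
Psmd13: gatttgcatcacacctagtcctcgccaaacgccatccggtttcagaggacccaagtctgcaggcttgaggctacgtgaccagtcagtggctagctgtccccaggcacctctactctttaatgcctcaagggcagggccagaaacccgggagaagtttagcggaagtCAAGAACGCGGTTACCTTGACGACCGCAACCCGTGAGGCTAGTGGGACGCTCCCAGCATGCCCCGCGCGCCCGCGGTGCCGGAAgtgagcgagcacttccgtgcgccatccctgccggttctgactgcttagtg
Trp53: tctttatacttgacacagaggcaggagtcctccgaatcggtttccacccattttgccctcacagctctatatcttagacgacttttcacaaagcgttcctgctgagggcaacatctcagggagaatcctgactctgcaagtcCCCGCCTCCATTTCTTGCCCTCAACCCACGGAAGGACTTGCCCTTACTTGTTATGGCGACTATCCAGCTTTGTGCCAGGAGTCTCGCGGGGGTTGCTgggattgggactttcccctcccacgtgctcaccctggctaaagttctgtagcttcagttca
Tmem209: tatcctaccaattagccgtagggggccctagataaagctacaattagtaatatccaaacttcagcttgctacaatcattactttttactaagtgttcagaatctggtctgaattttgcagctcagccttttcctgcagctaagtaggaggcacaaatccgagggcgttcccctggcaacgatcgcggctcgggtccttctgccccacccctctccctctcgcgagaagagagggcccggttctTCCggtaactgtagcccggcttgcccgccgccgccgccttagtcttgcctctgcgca
Gtf3c1: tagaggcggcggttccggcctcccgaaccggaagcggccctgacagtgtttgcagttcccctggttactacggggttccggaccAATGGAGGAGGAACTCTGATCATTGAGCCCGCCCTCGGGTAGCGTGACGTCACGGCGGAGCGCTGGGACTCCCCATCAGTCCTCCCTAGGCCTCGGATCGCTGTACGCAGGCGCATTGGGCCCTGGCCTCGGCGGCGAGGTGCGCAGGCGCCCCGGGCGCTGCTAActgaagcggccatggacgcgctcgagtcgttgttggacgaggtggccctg
Rpgrip1l: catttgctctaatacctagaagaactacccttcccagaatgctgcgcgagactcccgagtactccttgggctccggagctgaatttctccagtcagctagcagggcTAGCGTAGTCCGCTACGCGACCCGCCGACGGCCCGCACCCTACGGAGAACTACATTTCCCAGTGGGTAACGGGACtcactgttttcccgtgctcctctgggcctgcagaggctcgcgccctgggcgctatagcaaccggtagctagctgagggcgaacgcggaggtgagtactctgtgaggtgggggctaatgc
Irf7: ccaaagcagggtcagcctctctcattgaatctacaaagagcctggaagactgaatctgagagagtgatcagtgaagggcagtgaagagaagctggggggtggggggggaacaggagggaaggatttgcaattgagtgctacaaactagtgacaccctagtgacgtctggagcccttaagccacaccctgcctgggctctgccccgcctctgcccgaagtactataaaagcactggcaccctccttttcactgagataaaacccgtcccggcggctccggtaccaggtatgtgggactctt
The gene bodies stand 60 bp apart at Atm/Npat, 84 bp at Sirt3/Psmd13, 97 bp at Wrap53/Trp53, 3 bp at Tmem209/Ssmem1, 166 bp at Gtf3c1/D430042O09Rik and 75 bp at Rpgrip1l/Fto. The Irf7 window has no capitals, because Phrf1 and Irf7 face each other with their 3′ ends and the start of Irf7 lies on the far side of its own body. The Atm window held 28 CpG dinucleotides and the Irf7 window 7. At Trp53 the count was 10, and the observed CpG frequency was 0.49 of that expected from the C and G content.

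The members were mostly of ordinary promoter size. Their widths ran from 246 to 3985 bp, with a median of 1564.5 bp, and they held 22 to 923 wild-type tags (aligned reads counted in the peak), with a median of 232. These are values the rule partly used and are given as a description. Just inside the length limit were Phf23/Dvl2 with 3985 bp, Mrpl41/Pnpla7 with 3980 bp and Cdk5/Slc4a2 with 3932 bp. Just outside it were Leng8/Leng9 with 4004 bp, Slc49a4/Hspbap1 with 4040 bp and Mms19/Ubtd1 with 4051 bp, and 95 longer peaks met the rest of the rule. The member with the most tags, at Septin10/Sowahc (chr10:59220804-59224301), held 620 tags in Sun-/- and 923 in wild-type macrophages. Next came Phf23/Dvl2 with 534 tags in the overlapping Sun-/- peak and 867 in the wild-type peak, where Dvl2 transmits Wnt signals. At Exoc8/Sprtn (chr8:124895386-124899186), which joins a secretion gene and a DNA repair protease, 2 Sun-/- peaks held 649 tags in sum, against 864 tags in the wild-type peak. The member touching the most genes, 5 in all, was named for its closest pair, Tomm6/Prickle4, and held 387 tags in Sun-/- and 556 in wild-type cells. Unscaled values were lower in Sun-/- across the genome: over all 17114 paired peaks the median log2 ratio of tag density was -0.34.

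After duplicate removal the libraries held 26748289 tags for H3K4me3 in Sun-/- and 29681491 in wild type, and 28586946 and 27727997 for H3K9me3 in Sun-/- and wild type. MACS estimated fragments of 149 bp in Sun-/- and 142 bp in wild type for H3K4me3, but of 71 and 66 bp for H3K9me3, close to the tag length. The macrophage label was checked with marker genes: 10 of 10 macrophage markers were marked by H3K4me3 at either end of the gene in Sun-/- and in wild type. Of the markers of other cells, T and NK cells had 2 of 7 in each genotype, B cells 2 of 5 in each, eosinophils and mast cells 1 of 5 in each and dendritic cells 3 of 5 in each. Neutrophil markers had 2 of 7 in Sun-/- and 0 in wild type, and mesothelial and fibroblast markers had 3 of 9 in Sun-/- and 7 of 9 in wild type. Of all 21883 protein-coding genes, 13460 were so marked in Sun-/- and 13850 in wild type, so a mark at a single marker says little. The part of other cells in the results was not tested, and fewer cells with the mark and less of the mark per cell cannot be told apart.

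The arrangement of the closest gene pair could be read for the 1266 members whose genes both have a strand in the promoter table. Divergent pairs made up 786 members (47.3% of all), tandem pairs 409 and convergent pairs 71, while 394 had a gene without a strand there. The median distance between the gene bodies was 115 bp in divergent, 667 bp in tandem and 352 bp in convergent members. A member need not lie over both genes, since a peak at 1 start can be within 1000 bp of a close neighbour, and 528 members (31.8%) overlapped the bodies of both. The share of neighbouring pairs with at least 1 such peak was then counted from the annotation, for pairs with bodies under 1000 bp apart. Of 581 divergent pairs, 552 (95.01%) had a peak of under 4000 bp within 1000 bp of an end of both genes in Sun-/- and 549 (94.5%) in wild type. Of 457 tandem pairs it was 267 (58.4%) in Sun-/- and 284 (62.1%) in wild type, and of 432 convergent pairs it was 63 (14.6%) in Sun-/- and 67 (15.5%) in wild type. With 1 peak over the bodies of both genes, a count chosen after seeing the data, the shares were 42.5% in Sun-/- and 50.3% in wild type for divergent pairs, 19.3% in Sun-/- and 25.6% in wild type for tandem pairs, and 1.62% in Sun-/- and 3.24% in wild type for convergent pairs. The order of the arrangements was the same in both genotypes and by both counts. The wild-type shares rest on the peaks the rule used, and the Sun-/- shares on a list it did not use.

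**Figure D1:**
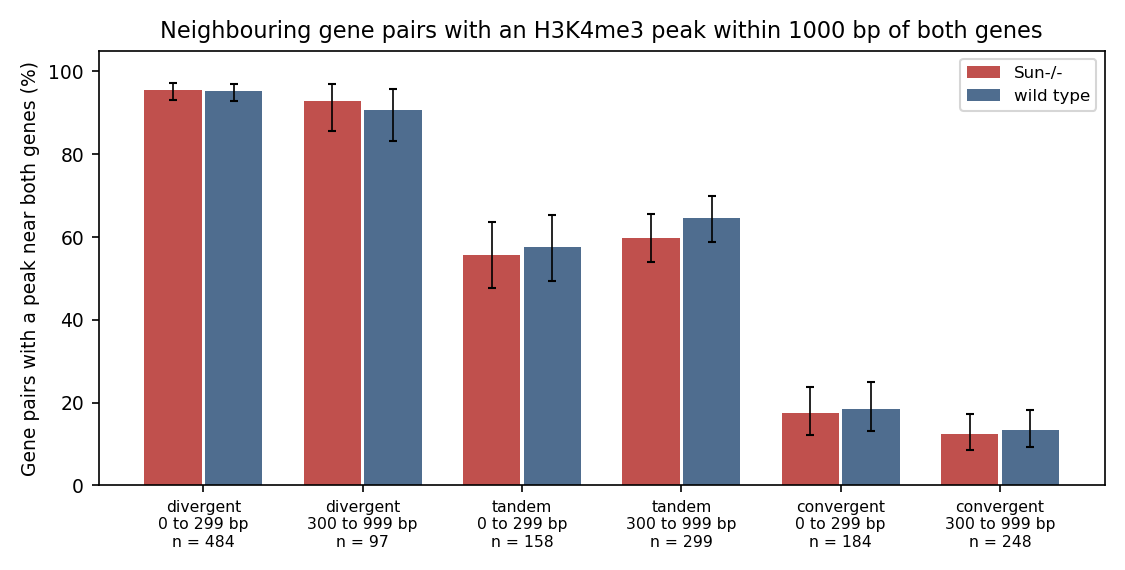
Share of neighbouring protein-coding gene pairs that had an H3K4me3 peak of under 4000 bp within 1000 bp of an end of both genes (y axis, percent), by arrangement and distance between the gene bodies, in Sun-/- (left bars) and wild type (right bars). Error bars are exact 95% intervals for counting error, and n is the number of annotated pairs. Divergent pairs stood above 90% in both distance classes and genotypes, and convergent pairs below 20%.

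The summit, the position of highest tag density, lay on either side of the gap between divergent genes and not in it. Only 18 of 786 divergent members (2.29%) had their wild-type summit between the gene bodies, while 768 (97.7%) had it inside a gene, 380 in the left and 388 in the right gene by chromosome position. Its median distance from the midpoint of the gap was 350.5 bp, and its quartiles were 240.0 and 485.4 bp. The gap is short beside the peaks, a median of 115 bp against a median peak width of 1409.5 bp. Only 285 divergent members (36.3%) overlapped both bodies. How many summits would lie in the gap by position alone was not tested. In tandem members the summit was nearer to the start of the downstream gene in 372 of 409 (91.0%), and it lay inside that gene in 330 (80.7%), a median of 213 bp past its start. Of the 71 convergent members, 32 also touched a gene's 5′ end. For 38 of the convergent members no outer 5′ limit of a gene body was within reach, and the only body ends near the peak were 3′ ends. Starts inside a gene body were not looked for, so these peaks may lie at such starts. Of these 38, 27 (71.1%) overlapped a Sun-/- peak, where 93.3% of all members and 71.9% of all wild-type peaks did. The median wild-type tag count of the 38 was 112.5, against 217 in divergent members and 89 in all wild-type peaks. Of the 38, 6 had an end of a non-coding gene within 1000 bp. The 2 of the 38 with the most tags are given, picked after their values were seen. The first was at Prr7/Dbn1 (chr13:55470893-55473626), with 461 tags in Sun-/- and 562 in wild type. The peak at Gpx4/Sbno2, which includes the glutathione peroxidase that limits ferroptosis, held 333 tags in Sun-/- and 529 in wild type. The wild-type summits of both lay inside the left gene, Prr7 and Gpx4, at -994 and -2633.5 bp from the midpoint of the gap.

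**Figure D2:**
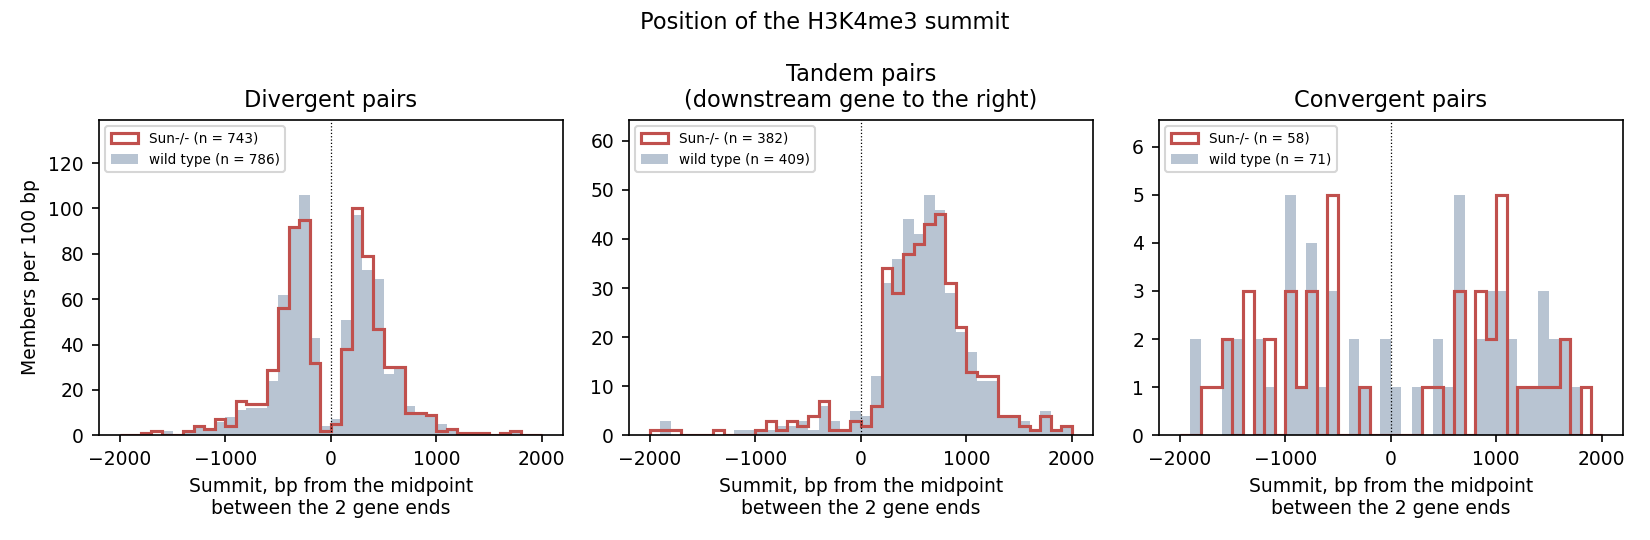
Position of the H3K4me3 summit relative to the midpoint between the facing ends of the 2 genes (x axis, bp) against the number of members per 100 bp (y axis), for divergent, tandem and convergent pairs. The outline is the overlapping Sun-/- peak and the filled area the wild-type peak, and positions beyond 2000 bp are not drawn. Divergent members show a maximum on each side of the midpoint and few summits at it, and tandem members lie towards the downstream gene.

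In 297 gene pairs the wild-type list held 2 members, and in 275 of them (92.6%) the summits stood on opposite sides of the gap. Among divergent pairs it was 207 of 216 (95.8%), with a median of 121.5 bp between the peaks. Most of these pairs were again marked by 2 peaks in Sun-/-: 218 of 297 (73.4%), while 77 (25.9%) had a single peak there. Among the 1048 pairs with 1 wild-type member, 83 had 2 or more Sun-/- peaks (7.92%). Pairs with a peak on each side of the gap in the deposited lists are the ones where tags can be read for each gene's side. In 138 divergent pairs both sides had a 1-to-1 partner in Sun-/-. The stronger side was the same in both genotypes in 124 of them (89.9%), including all 38 pairs where it was at least 2-fold stronger in wild type. At Polk/Cert1, a translesion polymerase beside a ceramide transporter, the left and right peaks held 54 and 297 tags in Sun-/-, against 92 and 435 in wild type. At Hmmr/Nudcd2 they held 35 and 140 tags in Sun-/-, against 58 and 271 in wild type. The opposite slope was seen at Fig4/Ak9, with 148 and 48 tags in Sun-/- and 221 and 58 in wild type, and at Pigf/Cript, with 218 and 51 in Sun-/- and 253 and 74 in wild type. Across the 138 pairs, which share the same 2 libraries, Pearson's r of the log2 side ratios was 0.95 and Spearman's rho 0.95, given as a description. The side with more tags differed between genotypes at Rpgrip1l/Fto, whose window is printed above, with 78 and 69 tags in Sun-/- and 84 and 127 in wild type. It also differed at Rad51c/Tex14, a recombination gene beside a germ cell gene, with 49 and 51 tags in Sun-/- and 99 and 58 in wild type. Apart from Polk/Cert1, the pairs in this paragraph were picked from their values, Rpgrip1l/Fto for the high ratio of its left peak, which enters its change of side.

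**Figure D3:**
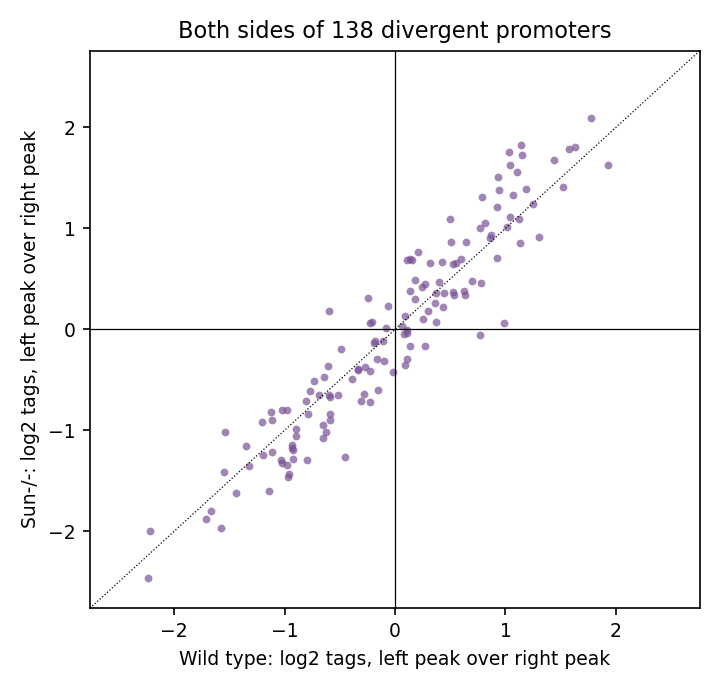
Left peak over right peak of 138 divergent gene pairs (log2 of the tag ratio), in Sun-/- on the y axis and in wild type on the x axis, with the line of equality dotted. Each point is 1 gene pair, and 124 of the 138 lie in the quadrants where the same side was stronger in both genotypes.

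The summit of most members with a 1-to-1 partner also stayed on the same side. For the 421 that overlapped the bodies of both genes, a split chosen after seeing the data, the Sun-/- summit was on the wild-type side in 381 (90.5%, interval 87.3 to 93.1), and in divergent pairs in 201 of 228 (88.2%). For the other 885, which lie to 1 side and leave the summit little room to change, it was 876 (98.98%). The median shift over all 1306 was 21 bp. Over 9002 single-gene pairs the median shift was 27 bp. Among the 1240 with the summit inside a gene in both genotypes, 33 had it in the other gene, 27 of them divergent, and all 33 overlapped both bodies. Of the divergent ones, the 3 with the most tags are given, chosen after their values were seen. The Sun-/- summit was 767 bp away, in Yrdc, at 1110065P20Rik/Yrdc, with 582 tags in Sun-/- and 740 in wild type. It was 886 bp away at Dpm1/Mocs3, with 543 tags in Sun-/- and 674 in wild type, and 799 bp away at Thap4/Atg4b, with 476 tags in Sun-/- and 610 in wild type.

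Nearly all members were marked in the knockout as well. A Sun-/- peak overlapped 1549 of 1660 members, or 93.3% (95% interval 92.0 to 94.5). The same share was 91.4% of 11165 single-gene peaks, those under 4000 bp at an end of 1 gene, and 71.9% of all wild-type peaks. The difference between members and single-gene peaks depended on width: it was 83.1% against 70.2% below 1000 bp, 94.6% against 96.7% from 1000 to under 2000 bp, and 97.9% against 99.3% from 2000 to under 4000 bp. In 1466 members (88.3%) 1 Sun-/- peak reached both genes, that is, lay within 1000 bp of an end of each. In 81 (4.88%) it reached 1 of both, in 2 neither, and 111 (6.69%) had no Sun-/- peak. Each member itself lies within 1000 bp of both genes, so a Sun-/- peak that overlaps it tends to reach both as well. By arrangement, 1 Sun-/- peak at both genes was found for 93.1% of divergent, 83.1% of tandem and 69.0% of convergent members. Any Sun-/- peak overlapped 94.5% of divergent, 93.4% of tandem and 81.7% of convergent members. The distance between the genes also differs by arrangement, and its part was not tested. The same rule applied to the Sun-/- list gave 1593 peaks at 1285 gene pairs, of which 1197 were also wild-type pairs. That is 93.2% of the Sun-/- pairs and 88.6% of the wild-type pairs.

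The 111 members without a Sun-/- peak were weak in the wild-type list. Their median was 88 tags and a score of 80.1, against 244 tags and a score of 502 in the other members (the score is 10 times the negative log10 of the caller's p-value). For 66 of them a Sun-/- peak lay within 1000 bp, and for 70 both genes had another Sun-/- peak at an end. At 14 neither gene had any. The most tags among the 111 were at Zfp36l1/Gm52006 (chr12:80109245-80113111), beside a gene for an mRNA decay factor, with no peak in Sun-/- and 624 tags in wild type, and its nearest Sun-/- peak was 1502 bp away. Others were the peak at Wdr46, B3galt4 and Rps18 with 406 wild-type tags, the peak named for Ppp1r14b with 357, and Ftl1/Bax with 259, which joins ferritin light chain and an apoptosis effector. For these the nearest Sun-/- peak was 1206, 229 and 160 bp away, in that order. The wild-type score of these 4 was between 50.8 and 135, and their fold enrichment over local background, the authors' value, was between 2.85 and 4.22. The members named Gm13278/Gm13275 and Gm13279/Gm13285 on chromosome 4, with 210 and 208 wild-type tags and no Sun-/- peak, lie among near-identical gene copies and are uncertain, and the second was picked after its values were seen. The highest score among the 111, 327, was at a member at Gbp2b/Gbp2, also picked after its values were seen. Its nearest Sun-/- peak was 88 bp away.

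Between genotypes the members' mark density differed little. Tag density (tags per kb of peak) was compared in 1306 members that overlapped 1 Sun-/- peak and no other by at least 50% reciprocally, with 50 tags or more in either library, and log2 ratios, Sun-/- over wild type, were set relative to the median of all 17114 pairs. The members' median was -0.054 (SD 0.22 across members), with 60.5% below 0, against -0.023 (SD 0.22) over single-gene pairs, with 54.6% below 0. These shares depend on the scaling: set relative to library totals, 73.8% of members and 69.996% of single-gene pairs were below 0, and relative to filtered tags 86.4% of members and 82.7% of single-gene pairs. By arrangement the median was -0.079 in divergent, -0.031 in tandem and 0.020 in convergent members. Members narrower than 1000 bp had a median of -0.16, against -0.093 in single-gene peaks of that width, and those from 2000 to under 4000 bp had -0.022, against 0.012. Sun-/- peaks were wider in 28.0% of paired members, 30.6% of single-gene pairs and 32.3% of all pairs. No member was at least 2-fold denser in Sun-/-, where 7 of all pairs were (0.0409%). A single member was at least 2-fold less dense, where 2 of all pairs were (0.0117%). By tags without division by width, 8 members were 2-fold higher and 2 lower, and the share of all pairs was not counted. At 1.5-fold, a size chosen after seeing the data, 9 members were denser (all pairs: 1.58%) and 13 less dense (all pairs: 0.66%), or 0.689% and 0.995% of the paired members.

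The member past 2-fold in density was the divergent Tmem209/Ssmem1 (chr6:30509112-30509726), where Tmem209 encodes a nuclear envelope protein and the gene bodies stand 3 bp apart. It held 39 tags in Sun-/- and 97 in wild type, a log2 ratio of -1.19 (interval -1.76 to -0.64). Gtf3c1/D430042O09Rik (chr7:125706614-125707716) followed with a ratio of -0.80 (-1.05 to -0.54). There the tags were close, 241 in Sun-/- and 269 in wild type, and the Sun-/- peak was wider, 2171 bp against 1103 bp. Other low members were small, such as Cetn2/Nsdhl, a centrin beside a cholesterol synthesis enzyme, with 45 tags in Sun-/- and 80 in wild type and a ratio of -0.65. Mttp/Trmt10a, with the lipoprotein assembly gene Mttp, held 61 tags in Sun-/- and 139 in wild type, a ratio of -0.63. The histone pair H2ac11/H2bc11 held 74 tags in Sun-/- and 117 in wild type, a ratio of -0.62, and its genes belong to a family of near-identical copies, so its tags are uncertain. The 10 members with the lowest ratios among pairs of at least 100 tags held 121 to 510 tags in both libraries together. All 10 had fewer tags in Sun-/-, which largely follows from picking low ratios. Unscaled density was also lower in Sun-/- over all pairs (median log2 ratio -0.34).

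Few members held more tags in Sun-/- than in wild type at the high end. Phrf1/Irf7 (chr7:141263401-141266735), a convergent pair whose peak spans the gene Irf7 and its start, held 429 tags in Sun-/- and 337 in wild type, a log2 ratio of 0.73 (0.52 to 0.94). The tandem member Aen/Isg20 (chr7:78912115-78914774) held 359 tags in Sun-/- and 258 in wild type, a ratio of 0.69 (0.45 to 0.92), and its Sun-/- peak was within reach of 1 of both genes. Isg20 encodes an interferon-induced exonuclease. F7/F10 (chr8:13036711-13039340), at the coagulation factor genes VII and X, held 289 tags in Sun-/- and 182 in wild type, a ratio of 0.62 (0.34 to 0.89). Il1rl1/Il18r1, receptors of the interleukin 1 family, had the highest ratio of all members, 0.74, from 56 tags in Sun-/- and 35 in wild type, under the 100 tags asked of named pairs and picked after its values were seen. The other high members were denser through narrower Sun-/- peaks and held fewer tags there. Rpgrip1l/Fto held 78 tags in 621 bp in Sun-/- and 84 tags in 871 bp in wild type, a ratio of 0.72. 2310061I04Rik/Atat1, with the tubulin acetyltransferase, held 266 tags in 1073 bp in Sun-/- and 361 tags in 1804 bp in wild type, a ratio of 0.65. Zfpl1/Cdca5, Brpf1/Ogg1, Ints5/Ganab, Chuk/Cwf19l1 and Casc1/Etfrf1 had ratios from 0.54 to 0.66.

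**Figure D4:**
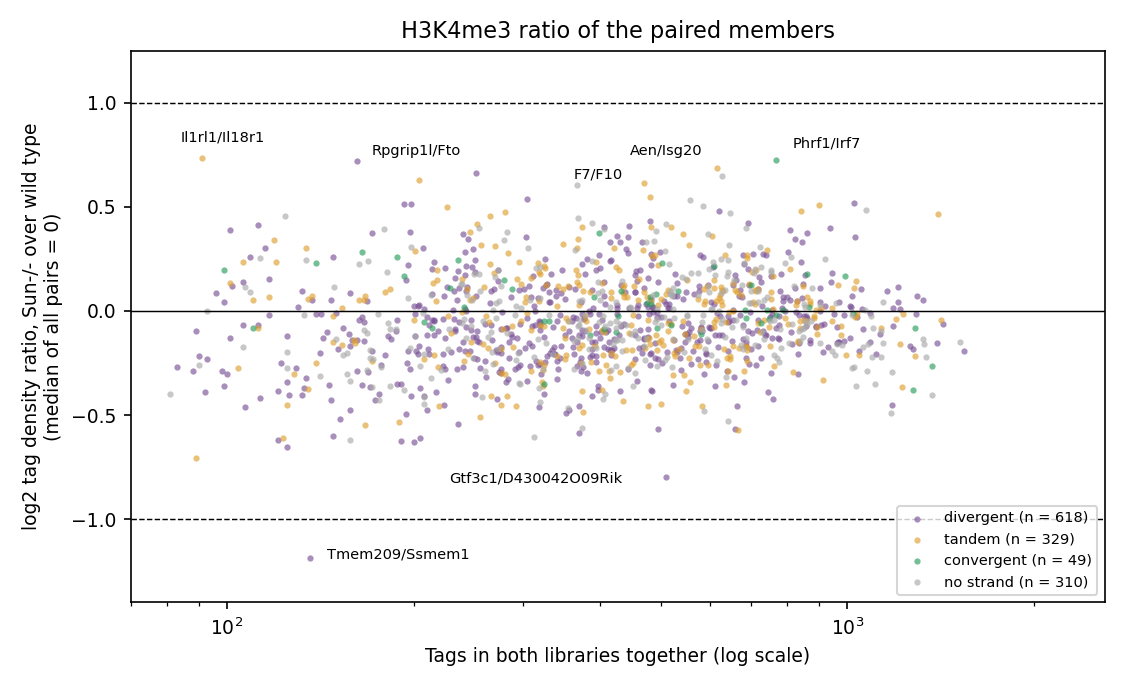
Log2 ratio of H3K4me3 tag density, Sun-/- over wild type and centred on all pairs (y axis), against the tags of both libraries together (x axis, log scale), for 1306 paired members coloured by arrangement. Dashed lines mark the 2-fold size, which Tmem209/Ssmem1 alone passes.

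Grouped by function, members were unevenly spread over the gene lists. Of all 21883 protein-coding genes, 2637 (12.1%) were at a member. A gene needs a peak to be at a member, and 13850 of all genes had a wild-type H3K4me3 peak at an end. Most genes of the lists had one: 67 of 72 histone, 90 of 94 DNA repair, 44 of 47 replication, 42 of 43 proteasome and 392 of 465 zinc finger genes. How far this accounts for the shares below was not tested. The share was 49 of 72 histone genes, 35 of 94 DNA repair genes (37.2%), 32 of 88 respiratory chain and ATP synthase genes (36.4%), 12 of 37 aminoacyl-tRNA synthetases and 25 of 78 mitochondrial ribosomal protein genes. It was 23 of 81 for cytosolic ribosomal proteins, 11 of 43 for proteasome subunits, 8 of 47 for DNA replication, 52 of 465 for zinc finger genes and 5 of 44 for inflammatory and NF-kB genes. The histone genes stand in clusters of near-identical copies, so their tags are uncertain. All 53 members at DNA repair genes overlapped a Sun-/- peak, where 93.3% of all members and 71.9% of all wild-type peaks did. The 40 paired members at DNA repair genes had a median ratio of -0.05, with 24 below 0. The replication list had a median of -0.24 over 10 paired members, with 7 below 0, and proteasome subunits -0.11 over 11, with 10 below 0. Mitochondrial ribosomal proteins had a median of -0.10 over 26, with 21 below 0, and cytosolic ribosomal proteins -0.11 over 26, with 19 below 0. Aminoacyl-tRNA synthetases had a median of -0.009, with 8 of 16 below 0, and respiratory chain and ATP synthase genes -0.05, with 18 of 34 below 0. Histone and zinc finger genes each had -0.06, with 18 of 28 and 23 of 42 below 0. The median of all pairs is 0 by construction, and that of all paired members was -0.054, with 60.5% below 0. Past 1.5-fold, DNA repair held 1 member in each direction. The histone and aminoacyl-tRNA synthetase lists each held 1 less dense member, and the other lists with a median given here held none.

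Among the interferon response genes, 8 of 32 were at 11 members, of which 8 overlapped a Sun-/- peak, where 93.3% of all members and 71.9% of all wild-type peaks did. The 7 paired members at interferon response genes had a median ratio of 0.08, with 4 above 0. Of these, 2 (Irf7 and Isg20) were at least 1.5-fold denser, where 0.689% of paired members and 1.58% of all pairs were. The 3 without a Sun-/- peak were both members at the guanylate-binding protein genes Gbp2b/Gbp2, with 22 and 97 wild-type tags, and 1 of the 2 at Bcl2l12/Irf3, with 159. Their nearest Sun-/- peaks were 1270, 88 and 138 bp away, in that order. The other member at Bcl2l12/Irf3, whose bodies stand 9 bp apart, held 192 tags in Sun-/- and 288 in wild type (ratio -0.21, interval -0.48 to 0.06). Irf9, part of the interferon-activated complex ISGF3, had 2 members with Rnf31, with 113 and 104 tags in Sun-/- and 95 and 173 in wild type (ratios -0.23 and -0.45). The first of these held more tags in Sun-/-, and its density was lower there only because the Sun-/- peak was wider. Ifit1bl2/Ifit1, with an interferon-induced RNA-binding protein, held 143 tags in Sun-/- and 106 in wild type (0.30, interval -0.07 to 0.67). At Ifnar2/Il10rb, which joins receptor subunits of interferon and interleukin 10, the Sun-/- peak held 248 tags and the wild-type peak 420, with no 1-to-1 partner and so no ratio. Dhx58/Kat2a, with a cytosolic RNA sensor, held 218 tags in Sun-/- and 269 in wild type (0.07, interval -0.19 to 0.34). Chuk, the kinase IKK alpha, shared its member with Cwf19l1, with 181 tags in Sun-/- and 299 in wild type (0.55, interval 0.27 to 0.82). The antigen presentation pair Psmb9/Tap1, an immunoproteasome subunit and a peptide transporter, held 503 tags in Sun-/- and 628 in wild type (-0.11, interval -0.28 to 0.06). The macrophage marker gene Cd68 stood with Eif4a1 under 1 member with 256 tags in Sun-/- and 433 in wild type (0.27, interval 0.04 to 0.50), the Sun-/- peak being 2253 bp wide against 3629 bp.

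Of 27 textbook pairs with a shared promoter, 11 were members, 12 had overlapping bodies in the annotation, 2 had a peak of 4000 bp or more and 2 had no shared peak. Brca1/Nbr1 held 3 members with 48, 44 and 68 tags in Sun-/- and 81, 58 and 120 in wild type. Atm/Npat held 68 and 207 tags in the 2 Sun-/- peaks and 140 and 308 in the wild-type peaks, with ratios of 0.01 and -0.05. Wrap53/Trp53 held 175 and 166 tags in Sun-/- and 245 and 190 in wild type, with ratios of -0.14 and -0.48. At the lower value the Sun-/- peak was wider, 1690 bp against 1098 bp. At Mcm4/Prkdc, a helicase subunit and the DNA-dependent protein kinase, 2 Sun-/- peaks held 191 tags in sum, against 318 in the wild-type peak. Sirt3/Psmd13 likewise had 2 Sun-/- peaks with 148 tags in sum, against 232 in the wild-type peak. None of these pairs without a 1-to-1 partner has a ratio. ChIP-seq tags carry no strand of transcription, so tags between such genes cannot be given to either.

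H3K9me3 was found at a smaller share of members than of single-gene peaks. A Sun-/- H3K9me3 peak overlapped 207 members (12.5%, interval 10.9 to 14.2), against 21.1% of single-gene peaks and 15.3% of all wild-type H3K4me3 peaks. A wild-type H3K9me3 peak overlapped 146 members (8.80%, interval 7.48 to 10.3), against 16.4% of single-gene peaks and 12.6% of all wild-type H3K4me3 peaks. Within widths of 1000 to under 2000 bp it was 10.6% of members against 19.9% of single-gene peaks in Sun-/-, and 7.83% against 15.3% in wild type. A peak was present in both genotypes at 79 members, in Sun-/- alone at 128 and in wild type alone at 67. This split was not counted over all wild-type H3K4me3 peaks, where the total was also higher in Sun-/- (4816 peaks) than in wild type (3954). The H3K9me3 peaks at members were small, with a median of 20 tags in Sun-/- and 17 in wild type. Members with the strongest H3K9me3 were picked after their values were seen. Both members at the predicted genes Gm51571 and Gm51572 on chromosome 8 carried 252 and 273 H3K9me3 tags in Sun-/- and 344 and 307 in wild type. Ankrd63/Plcb2 carried 143 in Sun-/- and 70 in wild type, and the heat shock pair Hspa1a/Hspa1l 107 in Sun-/- and 57 in wild type, where near-identical copies make the tags uncertain. Grn/Fam171a2, with the progranulin gene, carried 125 in Sun-/- and no called peak in wild type. Ccdc92/Zfp664 carried 97 in Sun-/- and 101 in wild type.

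Sequence was not used by the rule and is given as a description. Promoter windows of 1049 genes of divergent members had a median GC content of 62.0% and a median observed over expected CpG of 0.85, against 61.3% and 0.75 in 6987 genes of single-gene peaks and 56.3% and 0.59 over all 15751 promoters. The ratio reached 0.6 or more in 88.6% of divergent windows, 71.6% of single-gene windows and 48.9% of all. In 378 downstream genes of tandem members it was 70.9%, with a median of 0.74. Exact letters were then searched on both strands. CCGGAAG, bound by ETS family factors, was in 28.8% of divergent windows, 15.1% of single-gene windows and 12.0% of all promoters, and in 25.9% of tandem downstream windows. TCTCGCGAG, bound by ZBTB33, was in 3.81%, 1.20% and 1.02% of divergent, single-gene and all windows. AAGATGGCG, bound by YY1, was in 6.29%, 2.65% and 2.00%, and GCGCATGCG, bound by NRF1, in 5.15%, 3.58% and 2.53%. The CCAAT box, CCAAT, was in 45.3%, 38.5% and 39.4%, the GC box, GGGCGG, in 68.3%, 67.5% and 46.7%, and the TATA box, TATAAA, in 5.53%, 6.999% and 13.7%. GAGGAAGT, bound by the macrophage factor PU.1, was in 2.57%, 2.95% and 3.20%, and the interferon response core GAAANNGAA in 7.24%, 7.18% and 8.33%. The cyclic AMP response element TGACGTCA was in 3.72%, 3.38% and 2.38%, and the E-box CACGTG in 10.5%, 9.93% and 8.01%. The ETS, ZBTB33, YY1 and NRF1 letters each hold a CG. The divergent windows held a median of 24 CpG dinucleotides and the single-gene windows 21, and the part of this difference was not tested. Of 560 divergent pairs, 424 stand under 250 bp apart, so both of their windows hold partly the same bases and were counted for each gene. Of the printed windows, Psmd13, Atm, Tmem209 and Gtf3c1 hold the ETS letters, Tmem209 also holds the ZBTB33 letters, and Rpgrip1l holds none of the letters searched. The windows are placed by transcription starts and not by peaks. The Tmem209 window lies outside its member, and the Gtf3c1 window lies only partly inside the member with the low ratio.

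**Figure D5:**
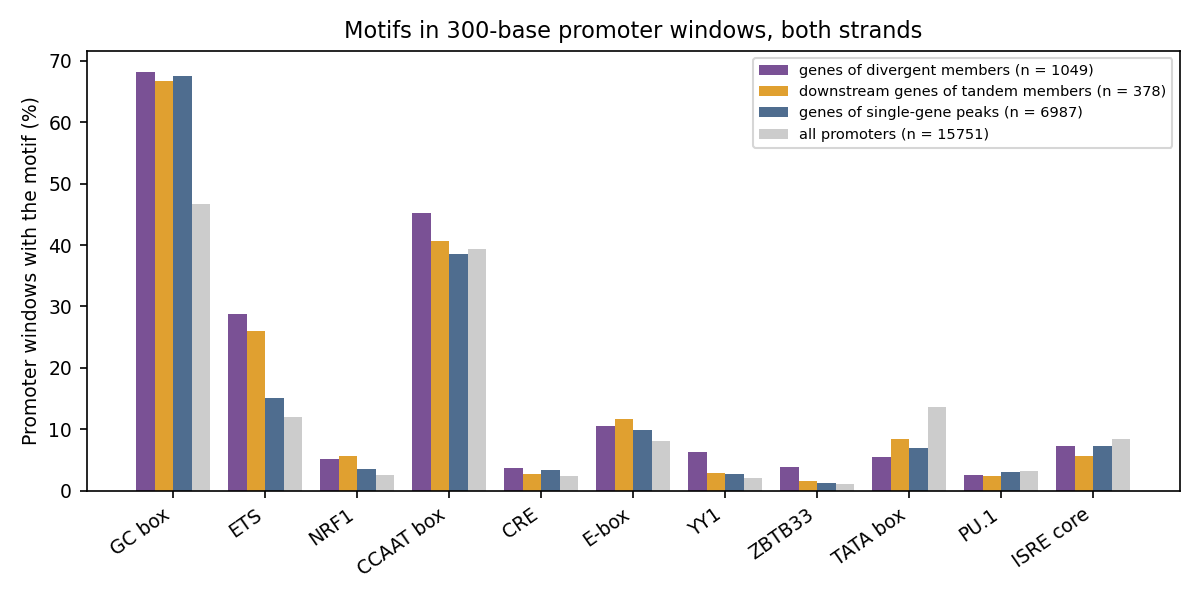
Share of 300-base promoter windows that hold each motif on either strand (y axis, percent), for genes of divergent members, downstream genes of tandem members, genes of single-gene peaks and all promoters. The ETS motif is in 28.8% of divergent windows and 15.1% of single-gene windows, while the GC box is in 68.3% and 67.5%.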

How the data were processed

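H3K4me3 and H3K9me3 were mapped by ChIP-seq in Sun-/- and wild-type macrophages, with 1 library per mark and genotype. Per the submitters' processing notes, the build was mm10 and the tools were CASAVA 1.4, Bowtie 0.12.8, MACS 1.4.2 and DiffBind. The order of the steps is not given in the sources used here. The authors' deposited file for each library is a peak list called without a control at a p-value limit of 1e-05, with background from up to 10000 bp around the peak, per the file headers. Its deposited values are the tag count per peak, the score, the fold enrichment over that background (a linear ratio), and positions and widths in bp.

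Genes were taken from RefSeq GRCm38.p6, the assembly that mm10 names, and strands from its promoter table, which held them for 17491 genes. Ends are those of the gene body. Members were found and paired in Python 3.11.15 with pandas 2.3.3 and numpy 2.4.6. Shares have exact Clopper-Pearson 95% intervals and ratios exact conditional binomial intervals (scipy 1.17.1), and plots were drawn with matplotlib 3.10.9. The computation was tested on simulated data. The members and lists were chosen with earlier results of these data known. The rule for names took the members with the most tags, the highest and lowest ratios, the most tags without a Sun-/- peak or with H3K9me3, the most genes, a textbook pair, and up to 4 per list. Pairs outside this rule were picked from their values, and not all that the rule took are reported. Alternatives were other windows, lengths, scores, overlaps, scalings and tag minimums. The letters of the ZBTB33, YY1, NRF1 and interferon core motifs were shortened after the shares of longer forms had been seen. Some members are not reported here.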

Additional observations from a re-analysis of the deposited data

How the results depend on the processing

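No paired analysis was possible because each mark and genotype has 1 library. A window of 2500 bp gave 2507 members, against 1660, while 500 bp, other length limits, a score limit and leaving out genes with Gm, LOC or Rik symbols (chosen after seeing the data) gave 1129 to 1755. The 93.3% with a Sun-/- peak became 86.6% with 50% of the member overlapped, 83.5% with Sun-/- peaks of score 100 or more, 97.6% with members of that score, 94.6% at 500 bp and 91.7% at 2500 bp. The median ratio of -0.054 became -0.24 scaled to filtered tags, which shifts all pairs by -0.19, -0.14 scaled to library totals, -0.084 with at least 20 tags, -0.031 with at least 100 and -0.044 at 2500 bp, with no change of sign. Without division by width, 8 members were 2-fold higher and 2 lower, and the share of all pairs past that size was not counted. With at least 100 tags 0 were lower, since Tmem209/Ssmem1 then drops out, and a 1.5-fold size gave 9 and 13. The H3K9me3 shares became 15.96% in Sun-/- and 10.9% in wild type with members extended by 1000 bp, and 3.31% and 1.93% with H3K9me3 peaks of score 100 or more. The median summit distance from the midpoint, 442 bp over all members, was 350.5 bp in divergent pairs and 363.5 bp with ends under 500 bp apart. ETS letters on the given strand alone were in 16.1% of divergent windows, 8.24% of single-gene windows and 6.62% of all. The longer letters of 4 motifs, searched first, were in 2.86%, 0.816% and 0.717% of divergent, single-gene and all windows for ZBTB33, 3.62%, 1.403% and 1.04% for YY1, 3.62%, 2.02% and 1.42% for NRF1, and 3.62%, 3.32% and 3.50% for the interferon core, whose shorter letters were instead in a smaller share of divergent than of all windows. The cause of these moves was not tested. The share of members whose Sun-/- peak reached both genes stayed within its interval under its 4 alternatives, but a peak that overlaps a member tends to reach both genes in any case. Depth limits the ratios of narrow members, whose median below 1000 bp was 94 wild-type tags.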
